A study of Mus musculus with 30 samples.

Results

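The genes examined here encode the MHC class I molecule and the machinery that loads it with peptide. They are the 10 rows, of the 25611 rows in the deposited gene count table, whose gene symbol is H2-K1, H2-D1, H2-T23, B2m, Tap1, Tap2, Tapbp, Tapbpl, Erap1 or Nlrc5. They were chosen by name, with earlier results of these data known. All 10 were found and all 10 passed the filter on low counts, which left 14808 genes for testing. RNA sequencing was done on FLT3L-derived bone marrow dendritic cells of the mouse, which had been differentiated for 6 to 7 days with FLT3L at 200 ng/ml, and both genotypes were grown in this way. Cells came from Rubcn knockout (KO) or wild-type (WT) mice. Rubcn encodes Rubicon, a protein needed for LC3-associated phagocytosis. The 5 conditions of each genotype were no treatment, OVA for 30 min, OVA for 4 h, apoptotic Jurkat cells for 30 min and apoptotic Jurkat cells for 4 h. OVA is the usual short form of ovalbumin, a model antigen, and Jurkat is a human T-cell leukaemia line. Each of the 10 groups held 3 libraries, which makes 30 in all. Nothing in the labels says whether the 3 libraries of a group came from separate mice or cultures, so the p-values measure only the spread between these samples, which may be technical. Neither the age of the mice nor the deleted part of Rubcn is stated in them.

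An MHC class I molecule consists of a heavy chain, the small invariant chain beta-2-microglobulin and a peptide. Peptides made by the proteasome are pumped into the endoplasmic reticulum by the TAP transporter, trimmed there by aminopeptidases, and fitted to the groove of the heavy chain by tapasin and its relatives, so that CD8 T cells can read them at the cell surface. In dendritic cells the same molecules also present peptides from material the cell has taken up, which is called cross-presentation, and interferons are known to raise transcription of most of these genes.

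Total counts per library ranged from 9.73 M to 51.6 M, with a median of 44.9 M, and the shallowest was the KO library of OVA for 30 min, replicate 3. Levels are given as CPM, counts scaled to a fixed total per library, on library sizes scaled by the trimmed mean of M values (TMM). The mean Rubcn level in untreated cells was 72.8 CPM ± 2.74 (SD, n = 3) in KO and 98.9 CPM ± 4.96 (SD, n = 3) in WT, and it was called lower in KO in all 5 conditions (adjusted p under 0.05, edgeR quasi-likelihood test) with log2 fold changes from -0.44 to -0.24, so transcript reads of the gene remained in KO. Libraries of 1 group differed by more than sampling noise in every pair, and no pair looked like 1 library counted again. The KO library of Jurkat cells for 4 h, replicate 2, stood apart from the other libraries of its group, with a chi-square per degree of freedom of 121 and 126 against them, where the other pair gave 4.74. Every other pair in the study lay between 2.22 and 15.7. Genotype differences with Jurkat cells for 4 h are therefore given also without it, as a repeat added after seeing the data where lists of genes and markers are concerned. General dendritic cell markers (Flt3, Itgax, Zbtb46, Cd74 and H2-Ab1) were detected above 1 CPM in all groups, as were all 7 markers of plasmacytoid dendritic cells and of both conventional types in untreated cells.

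Promoter sequence was looked up first, because several members were lower in KO together, as given further on. RefSeq's windows on GRCm38.p6, from 250 bases before to 50 bases after the annotated start, matched 7 of the 10 members: H2-K1, H2-D1, H2-T23, B2m, Tap1, Tapbp and Erap1. The 105-base stretches below, each 5′ to 3′ on the strand of its gene, were chosen because all 3 hold the letters TGACG followed after 20 bases by ATTGG. In the class I promoters TGACG is the core of the site for CREB-type factors, and ATTGG is the reverse complement of CCAAT, the core of the NF-Y site. Capitals mark these letters and, in B2m, also the core of an interferon-stimulated response element (GAAA, any 2 bases and GAAA again) and an NF-kB type motif (GGG, any 2 bases and TTTCC) read on the opposite strand.

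H2-K1, chr17:34000349-34000453, minus strand: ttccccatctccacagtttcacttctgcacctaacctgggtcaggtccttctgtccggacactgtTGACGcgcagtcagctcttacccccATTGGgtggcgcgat
H2-D1, chr17:35262928-35263032, plus strand: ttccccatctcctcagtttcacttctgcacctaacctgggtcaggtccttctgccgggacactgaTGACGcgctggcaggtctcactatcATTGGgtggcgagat
B2m, chr2:122147544-122147648, plus strand: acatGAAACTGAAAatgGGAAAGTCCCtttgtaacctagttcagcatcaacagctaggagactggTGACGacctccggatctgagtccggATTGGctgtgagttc

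The TGACG begins 41 bases before the annotated start of H2-K1, 101 before that of H2-D1 and 78 before that of B2m. These distances depend on where the start is annotated. A later CCAAT begins 8 bases after the start in H2-K1 and 53 before it in H2-D1. H2-K1 had 2 windows, and the 1 at the start of the counted row was used. The 20-base spacing between TGACG and ATTGG was noticed in these promoters and then counted, so its presence in them was fixed before the count. It was found in 3 of the 7 members and in 31 of all 32817 promoter windows of the same length, or 0.0945%. The H2-K1 and H2-D1 stretches were identical at 93 of 105 bases, or 88.6%, and B2m matched H2-K1 at 44 bases and H2-D1 at 43. Read on both strands, the interferon response motif was present in 3 of the 7 windows (H2-T23, B2m and Erap1) and in 3.43% of all windows. The NF-kB type motif was present in B2m alone among them and in 1.63% of all windows, CCAAT in 6 of 7 and in 37.4%, and TGACG in 4 of 7 and in 20.8%. The STAT type motif TTCNNNGAA was in none of the 7 windows and in 8.29% of all. A match describes letters in a window and does not show that a factor binds there. Only these exact spellings were counted, so an absent match does not show that a site is absent. For instance, ggggattcccc in the H2-K1 and H2-D1 windows was not counted under the NF-kB type pattern. Likewise, agtttcacttct in the same windows was not counted under the interferon response pattern.

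KO cells held less RNA of class I genes than WT cells before any treatment. With edgeR's quasi-likelihood test, and an adjusted p under 0.05 over all genes tested as the threshold for a call, 7 of the 10 members were lower in untreated KO cells and none was higher, where 3.97% of all genes tested were called lower. The median log2 fold change of the 10 was -0.26, against -0.01 over all genes. Counts of members called lower were 6 of 10 with OVA for 30 min (6.13% of all genes lower), 5 of 10 with Jurkat cells for 30 min (3.67%), 8 of 10 with OVA for 4 h (6.35%) and 10 of 10 with Jurkat cells for 4 h (13.5%). Median log2 fold changes in those conditions were -0.26, -0.20, -0.29 and -0.26. H2-K1, H2-D1, H2-T23, B2m and Tap1 were called lower in all 5 conditions, as were 123 of all 14808 genes, or 0.831%. RNA of a bulk culture does not tell fewer cells of a type from less RNA per cell.

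**Figure D1:**
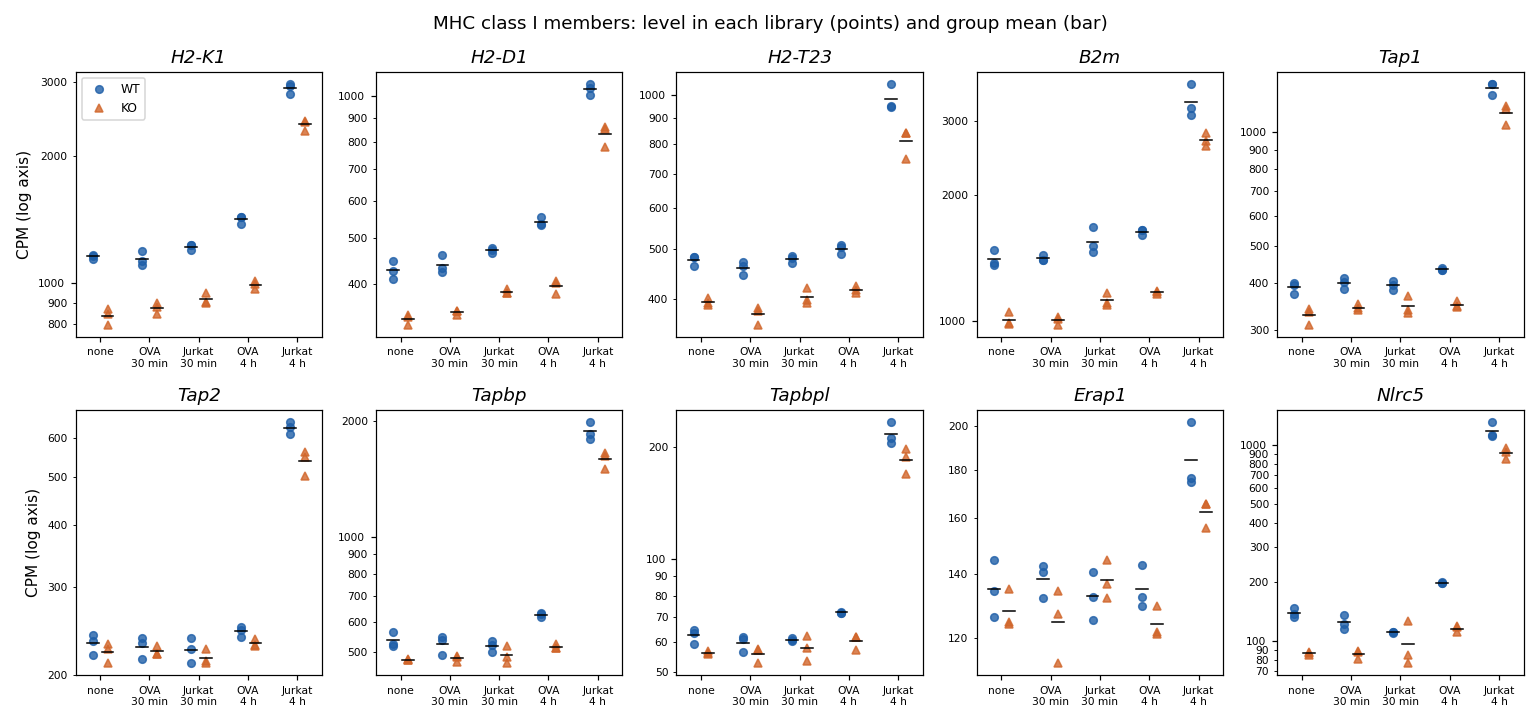
Level of each member in every library, as CPM on a log axis, for WT (circles) and KO (triangles) in the 5 conditions; short bars are group means of 3 libraries. KO points lie below WT points in every condition for H2-K1, H2-D1, H2-T23 and B2m, and all members are highest with Jurkat cells at 4 h.

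H2-K1 and H2-D1 encode classical class I heavy chains, the chains that present peptide to CD8 T cells. On mm10 the H2-K1 row spans chr17:33996012-34000347 on the minus strand and H2-D1 spans chr17:35263094-35267497 on the plus strand. H2-K1 stood at 1141, 1163 and 1169 CPM in the untreated WT libraries and at 798, 867 and 847 CPM in the untreated KO libraries. The highest KO library was below the lowest WT library. The KO mean was 72.3% of the WT mean, a log2 fold change of -0.47 ± 0.037 (SE) with an adjusted p of 5.17e-10 (edgeR quasi-likelihood test). After OVA for 4 h the libraries stood at 1437, 1438 and 1382 CPM in WT and at 994, 971 and 1011 CPM in KO. This was the widest H2-K1 difference of the 5 conditions in log2 terms, at -0.52 ± 0.037. After Jurkat cells for 4 h, H2-K1 reached 2810.0, 2926 and 2961 CPM in WT and 2405, 2292 and 2424 CPM in KO, again without overlap, and the log2 fold change was -0.29 ± 0.037, or -0.26 without the KO library that stood apart.

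H2-D1 followed the same order at lower counts. Its untreated libraries gave 411, 426 and 447 CPM in WT and 328, 341 and 344 CPM in KO, with no overlap. The log2 fold change was -0.34 ± 0.040 with an adjusted p of 7.37e-07 (edgeR quasi-likelihood test). It was -0.33 with OVA and -0.29 with Jurkat cells at 30 min, -0.45 with OVA at 4 h and -0.32 with Jurkat cells at 4 h (-0.28 without the library that stood apart), and the genotypes did not overlap in any of these.

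H2-T23, on chr17:36029977-36032701 of the minus strand, encodes Qa-1, a non-classical heavy chain that displays a narrow set of peptides to NK cells and some T cells. Untreated libraries gave 464, 483 and 483 CPM in WT and 401, 392 and 388 CPM in KO. All KO libraries were below all WT libraries, and the log2 fold change was -0.28 ± 0.044 with an adjusted p of 7.39e-05 (edgeR quasi-likelihood test). Across the 5 conditions its difference ranged from -0.30 to -0.24.

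Reads of these 3 heavy chains may be shared with their relatives, and how the counting treated such reads is not given in the sources used here. In GENCODE M21 transcripts, 8.79% of the 50-base windows of H2-K1, 14.3% of those of H2-D1 and 28.8% of those of H2-T23 also occurred in another gene. With 100-base windows the shares were 0%, 4.64% and 7.28%. The largest sharing for H2-K1 was with H2-D1, at 6.94% of its 50-base windows, and for H2-T23 with H2-T-ps, at 12.9%. Whether shared reads had a part in the likeness of the 3 rows was not tested. B2m, Erap1 and Nlrc5 shared no window of either length, and the remaining members shared at most 3.52% of 50-base windows.

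B2m, on chr2:122147687-122153082 of the plus strand, encodes beta-2-microglobulin, without which heavy chains do not reach the surface. It is the one member off chromosome 17 among those lower in KO in all 5 conditions, since H2-K1, H2-D1, H2-T23 and Tap1 all lie there. Untreated WT libraries gave 1478, 1382 and 1360.1 CPM and KO libraries 1054, 991 and 986 CPM. Each KO value was under the lowest WT value, and the KO mean was 71.8% of the WT mean. The log2 fold change was -0.48 ± 0.051, with an adjusted p of 1.73e-07 (edgeR quasi-likelihood test). With OVA for 4 h the values were 1649, 1656 and 1607 CPM in WT and 1163, 1177 and 1183 CPM in KO, and the log2 fold change was again -0.48. After Jurkat cells for 4 h B2m stood at 3102, 3686 and 3235 CPM in WT and 2692, 2614 and 2812 CPM in KO. The genotypes still did not overlap, and the log2 fold change was -0.30 ± 0.051.

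Within a library, the ratio of 2 member levels does not depend on the scaling between libraries. Such a ratio restates the genotype differences of its 2 genes and is no separate support for them. The ratio of H2-K1 to B2m was 0.830 ± 0.0639 (SD, n = 3) in untreated KO and 0.824 ± 0.0462 (SD, n = 3) in untreated WT, with an exact permutation p of 0.9, two-sided. These 2 genes thus stood in nearly the same ratio in both genotypes. They overlapped in every condition but OVA for 4 h, where the mean ratio was 0.845 in KO and 0.867 in WT. The ratio of H2-K1 to Tap2 was 3.77 ± 0.0884 (SD, n = 3) in untreated KO and 5.01 ± 0.174 (SD, n = 3) in untreated WT. It did not overlap between genotypes in 4 conditions (exact permutation p = 0.1 in each, the smallest that 3 against 3 libraries allow, and 0.2 after Benjamini-Hochberg adjustment over 10 ratio tests). With Jurkat cells for 4 h the ranges overlapped, with means of 4.41 in KO and 4.60 in WT (exact permutation p = 0.2).

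The transporter subunits were not called in the same conditions, and no test compared the 2 genes. Tap1 and Tap2 encode the 2 chains of the TAP pump, and the rows lie close together, at chr17:34187556-34197225 and chr17:34204479-34216321, both on the plus strand. Tap1 gave 373, 395 and 398 CPM in untreated WT and 309, 334 and 339.9 CPM in untreated KO, without overlap. Its log2 fold change was -0.25 ± 0.045, with an adjusted p of 0.000456 (edgeR quasi-likelihood test). Tap2 gave 219, 234 and 241 CPM in untreated WT and 211, 225 and 230.5 CPM in untreated KO. Its ranges overlapped, and the log2 fold change of -0.06 ± 0.048 did not pass the test. The Tap2 difference stayed between -0.08 and -0.03 in the next 3 conditions, also without a call. At 4 h with Jurkat cells Tap2 stood at 613, 647 and 632 CPM in WT and at 564, 503 and 550.1 CPM in KO, and it was called lower by 0.23 on the log2 scale (-0.18 without the KO library that stood apart). Tap1 was called lower in all 5 conditions, with log2 fold changes from -0.31 with OVA for 4 h to -0.18 with Jurkat cells for 30 min. With Jurkat cells for 4 h the KO mean was 85.3% of the WT mean for Tap1 and 85.5% for Tap2. The Tap1 call with Jurkat cells for 30 min was lost without KO replicate 3 (-0.16, adjusted p = 0.0706) or without WT replicate 2 (-0.17, adjusted p = 0.0605). Exons of Tap1 overlap those of Psmb9 on the opposite strand over 7.18% of their length, and exons of Tap2 overlap Gm15821 over 15.0%. Whether the counting used strand is not given in the sources used here, so reads of such partners may be mixed.

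Tapbp and Tapbpl encode tapasin, which bridges TAP and the heavy chain, and the tapasin-related protein TAPBPR, which edits bound peptide outside that complex. The Tapbp row is at chr17:33919478-33929290 on the plus strand, where 23.5% of its exon length is overlapped by the antisense gene Gm19412, and the Tapbpl row is at chr6:125224212-125231860 on the minus strand. Tapbp gave 521, 527 and 565 CPM in untreated WT and 480.5, 478 and 478 CPM in untreated KO, with no overlap, and a log2 fold change of -0.17 ± 0.046 (adjusted p = 0.018, edgeR quasi-likelihood test). The call was lost without KO replicate 1 (-0.17, adjusted p = 0.0526), KO replicate 2 (-0.17, adjusted p = 0.0559) or WT replicate 3 (-0.13, adjusted p = 0.122). Tapbp was not called at 30 min with OVA (-0.12) or with Jurkat cells (-0.08), and was lower at 4 h with OVA (-0.28) and with Jurkat cells (-0.24). Tapbpl gave 59.2, 63.7 and 64.9 CPM in untreated WT and 56.1, 57.0 and 55.9 CPM in untreated KO, a difference of -0.15 ± 0.057 on the log2 scale that did not pass the test although the ranges did not overlap. With OVA for 4 h it gave 71.7, 72.1 and 72.4 CPM in WT and 61.9, 57.2 and 62.0 CPM in KO. There the log2 fold change was -0.26 ± 0.057 and passed, as it did with Jurkat cells for 4 h at -0.23.

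Erap1, on chr13:74639872-74691875 of the plus strand, encodes the aminopeptidase of the endoplasmic reticulum that trims peptides to the length the groove takes. Untreated libraries gave 145, 134 and 126 CPM in WT and 135, 125 and 124 CPM in KO, which overlapped. The log2 fold change of -0.08 ± 0.062 was not called, and in untreated cells it and that of Tap2 (-0.06) were the smallest of the 10. In the other conditions it lay between -0.18 and 0.05, and only that of -0.18 with Jurkat cells for 4 h was called, with an adjusted p of 0.0332 (edgeR quasi-likelihood test). That call was lost when libraries were scaled to total counts (-0.10, adjusted p = 0.213) and without any 1 of the 3 KO libraries (adjusted p from 0.0505 to 0.134) or without WT replicate 2 (adjusted p = 0.256). Cast overlaps 14.8% of the Erap1 exon length on the opposite strand.

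Nlrc5, on chr8:94472763-94527272 of the plus strand, encodes the transactivator that acts with factors bound at class I promoters. It had the largest log2 difference of the 10 in every condition but Jurkat cells for 30 min. Untreated WT libraries gave 136, 132 and 146 CPM and KO libraries 84.5, 87.3 and 86.0 CPM. The KO mean was 62.1% of the WT mean, and the log2 fold change was -0.69 ± 0.10 with an adjusted p of 2.83e-05 (edgeR quasi-likelihood test). With OVA for 4 h it gave 197, 199 and 197 CPM in WT and 117, 118 and 111 CPM in KO, a KO mean of 58.3% of WT and a log2 fold change of -0.78 ± 0.10. In neither condition did the genotypes come near to overlapping.

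At 30 min with Jurkat cells Nlrc5 was not called lower in KO. The WT libraries gave 110.2, 111 and 109 CPM, and the KO libraries gave 125, 76.8 and 84.5 CPM. KO replicate 1 was above all WT libraries and the other 2 were below them. The log2 fold change of -0.21 ± 0.10 was not called (adjusted p = 0.223, edgeR quasi-likelihood test), and without KO replicate 1 it was -0.45 with an adjusted p of 4.8e-05. Without that replicate 6 of the 10 members, in place of 5, were called lower in this condition. At 4 h with Jurkat cells Nlrc5 gave 1124, 1307 and 1114 CPM in WT and 964, 851 and 915 CPM in KO. These did not overlap, and the log2 fold change was -0.38 ± 0.098 with an adjusted p of 0.00569 (edgeR quasi-likelihood test). Without WT replicate 2 that call was lost (-0.30, adjusted p = 0.0559). Without the KO library that stood apart, 9 of 10 members were called lower in this condition, all but Erap1. The log2 fold changes were then -0.33 for Nlrc5, -0.28 for B2m and H2-D1, -0.26 for H2-K1, -0.23 for H2-T23, -0.20 for Tapbp, -0.18 for Tap1 and Tap2 and -0.17 for Tapbpl. The shares of all genes called lower at 30 min and 4 h with Jurkat cells, 3.67% and 13.5%, come from all 30 libraries. They were not counted again for the repeats without 1 library.

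**Figure D2:**
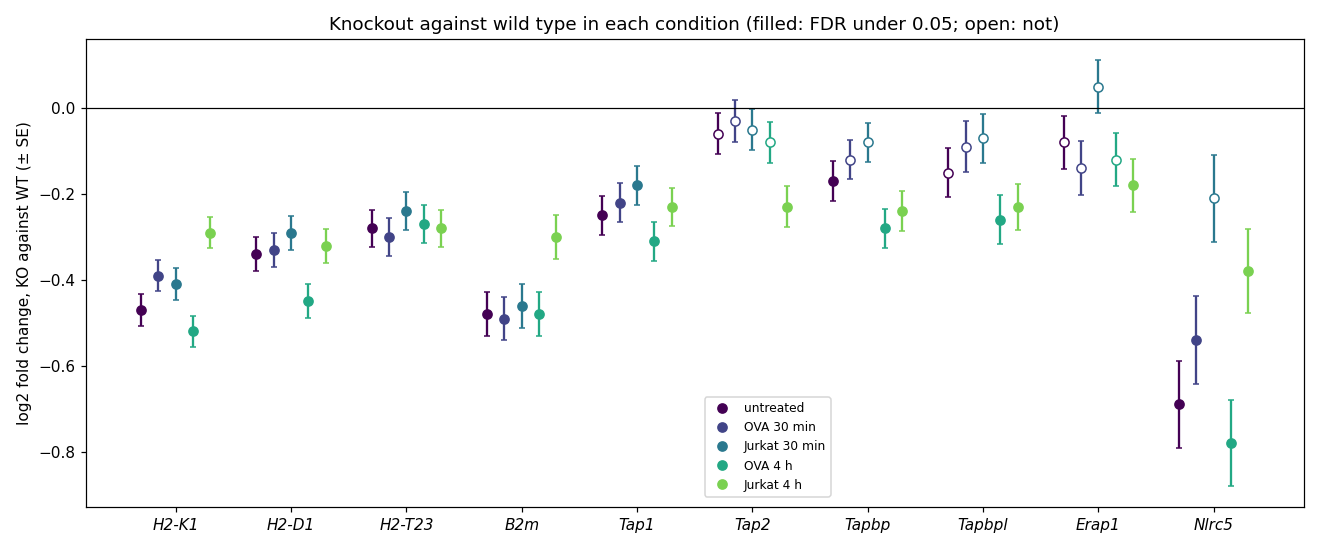
Log2 fold change of KO against WT for each member in the 5 conditions, with standard errors; filled points passed an adjusted p under 0.05 and open points did not. Nlrc5 lies lowest in untreated cells at -0.69 and with OVA for 4 h at -0.78, H2-K1 and B2m lie near -0.5 to -0.3, and Tap2 and Erap1 are filled only with Jurkat cells for 4 h.

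Markers of cell types also differed between the genotypes. The summed level of 7 plasmacytoid dendritic cell markers was 4407 CPM ± 71.6 (SD, n = 3) in untreated KO and 4833 CPM ± 46.3 (SD, n = 3) in untreated WT, with 3 of 7 called lower in KO and none higher. Bst2 is in this list and also in that of interferon-induced genes. Irf8 is in this list and also in those of conventional type 1 markers and of factors of class I promoters. Ranges of the plasmacytoid sums did not overlap, at 4332 to 4475 in KO and 4786 to 4879 in WT. The 7 stromal markers summed to 701 to 880.1 CPM in untreated KO and 546 to 626 CPM in untreated WT, with 5 of 7 called higher in KO, where 6.00% of all genes tested were. Those of basophils and mast cells summed to 193 to 221 CPM in KO and 147 to 158 CPM in WT, with 6 of 7 called higher. No marker of these 3 lists was listed at 0 in either group. Conventional type 1 markers summed to 2575 to 2653 CPM in untreated KO and 2687 to 2784 CPM in untreated WT, with 1 of 7 called higher and 1 lower. Those of conventional type 2 summed to 1667 to 1798 CPM in KO and 1584 to 1637 CPM in WT, with 2 of 7 called higher and 1 lower. In untreated KO 3.97% of all genes tested were called lower. At 4 h with Jurkat cells, where 13.5% of all genes were called lower in KO and 9.37% higher, 6 of 7 plasmacytoid markers were lower (median log2 fold change -0.24), and 4 of 7 markers of conventional type 1 dendritic cells were lower and 1 was higher (-0.16). In the same comparison 5 of 7 markers of conventional type 2 were higher (0.21), as were 6 of 7 stromal markers (0.53) and 7 of 7 of basophils and mast cells (1.59). Without the KO library that stood apart these counts were 3 lower for plasmacytoid cells, 1 lower and 1 higher for conventional type 1, and 4, 5 and 7 higher for the other lists. Whether the share of these cells had a part in the class I difference was not tested.

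No member passed the test after OVA for 30 min. In both genotypes 0 of 10 members passed edgeR's quasi-likelihood test against untreated cells, where 10.7% of all genes in WT and 3.77% in KO did. None of the 10 had an unadjusted p under 0.05 in either genotype, and DESeq2 called 0 as well. The members' log2 fold changes lay between -0.16 and 0.07.

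With OVA for 4 h 7 of 10 members were called higher than in untreated WT cells, where 11.9% of all genes tested were. In KO 4 of 10 were, where 5.94% of all genes were. No member was called lower in either genotype. The labels give no time for the untreated cells. Time in culture and handling therefore cannot be told apart from OVA or Jurkat cells in any comparison against them. All treatment comparisons of a genotype share its 3 untreated libraries, so the values below are set side by side and are not independent of each other. Nlrc5 rose by 0.51 ± 0.10 on the log2 scale in WT and by 0.42 ± 0.10 in KO. H2-D1 rose by 0.34 in WT and 0.23 in KO, H2-K1 by 0.29 and 0.24, and B2m by 0.22 in both. These 4 genes passed in both genotypes. Tapbp (0.22), Tapbpl (0.20) and Tap1 (0.16) passed in WT alone, with values in KO of 0.11, 0.10 and 0.09, and their genotype differences, tested directly, did not pass. The calls for Tapbpl and Tap1 in WT were lost without untreated WT replicate 1 (adjusted p = 0.0551 and 0.0605). H2-T23, Tap2 and Erap1 stood between -0.04 and 0.08 in both genotypes and were not called.

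Jurkat cells at 30 min were followed by small differences in a few members. B2m and H2-D1 were each higher by 0.14 on the log2 scale in WT, and Nlrc5 was lower by 0.33, from 136, 132 and 146 CPM to 110.2, 111 and 109 CPM. Of all genes tested, 14.2% were called higher and 14.5% lower in this comparison. In KO H2-D1 (0.19), B2m (0.15) and H2-K1 (0.13) were called higher, where 8.72% of all genes were. Without KO replicate 1 of this group only H2-D1 was called (0.18, adjusted p = 0.00733), and H2-K1 (0.11) and B2m (0.12) were not. In WT the B2m call was lost without replicate 1 (0.08) or without untreated replicate 2 (0.13) or 3 (0.12), that of H2-D1 without untreated replicate 1 (0.11, adjusted p = 0.0546), and that of Nlrc5 without untreated replicate 3 (-0.29, adjusted p = 0.0693). At 30 min, 2072 genes were called higher in the Jurkat than in the OVA libraries, and B2m and H2-D1 were among them. The part of reads from the human cells in these rows was not tested.

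With Jurkat cells for 4 h all 10 members were called higher than in untreated cells in both genotypes. The background was high, with 38.9% of all genes in WT and 37.5% in KO called higher. The members' median log2 fold change was 1.39 in WT and 1.46 in KO, and that of all genes was -0.02 and -0.03. Nlrc5 had the largest rise, from 138 CPM ± 7.26 (SD, n = 3) to 1182 CPM ± 109 (SD, n = 3) in WT and from 85.9 CPM ± 1.39 (SD, n = 3) to 910.3 CPM ± 56.6 (SD, n = 3) in KO, which are log2 fold changes of 3.09 ± 0.11 and 3.40 ± 0.11. It exceeded 95.2% of all genes tested in WT and 96.2% in KO. Tapbp (1.81 in WT and 1.73 in KO), Tapbpl (1.79 and 1.71) and Tap1 (1.76 and 1.78) came next.

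Tap2 rose by 1.45 in WT and 1.28 in KO. The heavy chains rose by 1.32 and 1.50 for H2-K1, 1.27 and 1.30 for H2-D1 and 1.05 and 1.04 for H2-T23, and B2m by 1.25 and 1.42. Every treated library of these genes was above every untreated library of its genotype. Erap1 rose least, by 0.45 in WT and 0.34 in KO, and its rise depended on the scaling. The TMM factors were 0.765 to 0.842 in the libraries of this treatment and 1.03 to 1.07 in all others. When library totals set the scale, the median over all genes moved to -0.42 in WT and -0.37 in KO, and Erap1 stood at 0.04 and 0.01 without a call. The other 9 members were still called higher in both genotypes, from 0.64 for H2-T23 to 2.69 for Nlrc5 in WT and from 0.70 for H2-T23 to 3.07 for Nlrc5 in KO. Without the KO library that stood apart, all 10 were called higher in KO, from 0.37 for Erap1 to 3.45 for Nlrc5.

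T-lineage markers, as a sign of Jurkat RNA, moved with the treatment. The 18 markers summed to 77.0 CPM ± 3.15 (SD, n = 3) in untreated WT, 134 CPM ± 2.71 (SD, n = 3) with Jurkat cells for 30 min and 218 CPM ± 24.5 (SD, n = 3) at 4 h. In KO the sums were 81.0 CPM ± 3.48, 113 CPM ± 7.21 and 167 CPM ± 12.4 (SD, n = 3 each). At 4 h, of 17 markers tested against untreated cells, 15 were called higher and 2 lower in WT (median log2 fold change 2.53). In KO 13 were higher and 2 lower (1.94). Of all genes, 38.9% in WT and 37.5% in KO were called higher, and 40.6% and 41.0% lower. Against WT at 4 h, 6 of the 17 were lower in KO and none was higher (-0.36), where 13.5% of all genes were lower. None of the 18 was listed at 0 in every library of a group, and Cd3e, a chain of the T-cell receptor complex, went from a mean of 0.0778 CPM in untreated WT to 6.09 CPM at 4 h. Without the KO library that stood apart, the KO sums at 4 h were 157 and 164 CPM. Against WT 7 markers were then lower in KO and none was higher, with a median of -0.4. Whether human reads had a part in the members' rise was not tested.

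Markers of mouse cell types moved with the same treatment, where 40.6% of all genes were called lower in WT and 41.0% in KO. The shares called higher were 38.9% and 37.5%. Of the 7 markers of conventional type 2 dendritic cells 6 were lower and 1 higher in WT (median log2 fold change -1.41), and 5 were lower and 1 higher in KO (-1.36). Those of monocytes and macrophages gave 5 of 7 higher and 1 lower in each genotype, with medians of 0.88 in WT and 0.81 in KO. Stromal markers were higher for 6 of 7 in WT (0.61) and 7 of 7 in KO (0.68), or 5 of 7 without the KO library that stood apart. For the B lineage 5 of 6 were higher and 1 lower in each genotype (0.65 and 0.55). General dendritic cell markers gave 3 of 5 higher and 2 lower in each (0.31 and 0.41), and plasmacytoid markers 4 of 7 higher and 3 lower (0.20 and 0.19). Of 7 conventional type 1 markers 2 were higher and 4 lower in WT (-0.17), and 2 higher and 5 lower in KO (-0.26). Of 7 basophil and mast cell markers 1 was higher in WT and 4 in KO (3 without the KO library that stood apart), and none was lower. The part of these shifts in the members' rise was not tested.

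**Figure D3:**
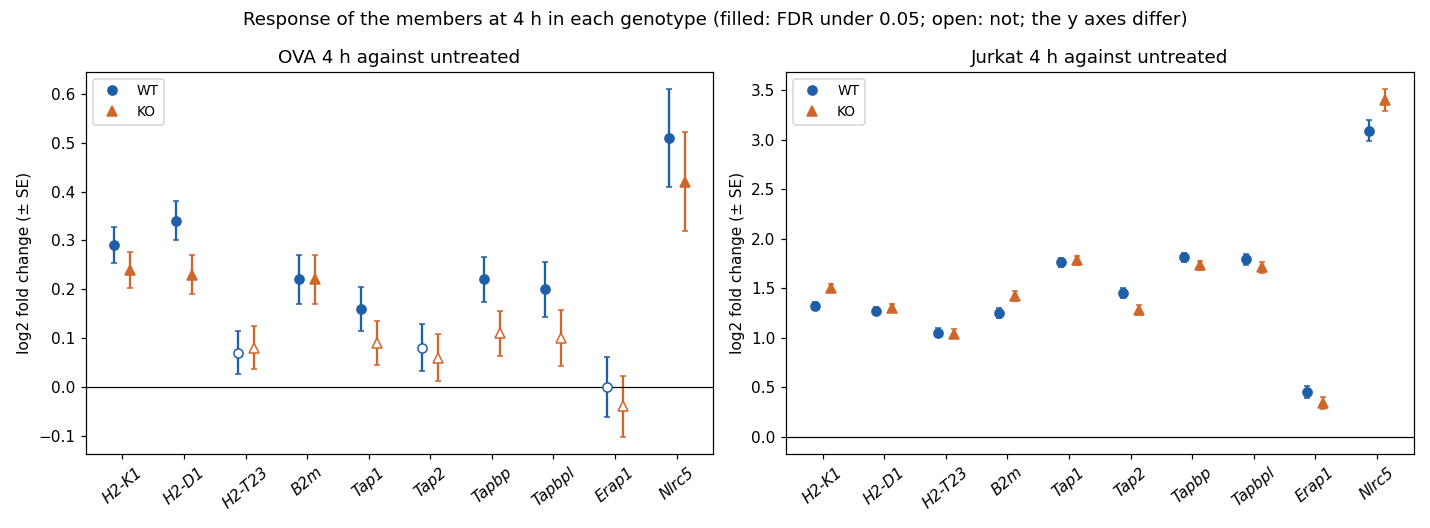
Log2 fold change of each member against untreated cells after OVA for 4 h (left) and Jurkat cells for 4 h (right), for WT (circles) and KO (triangles) with standard errors; filled points passed an adjusted p under 0.05, and the vertical axes differ. OVA values lie between -0.04 and 0.51, and Jurkat values between 0.34 for Erap1 in KO and 3.40 for Nlrc5 in KO.

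The difference between the genotypes in these responses was tested as an interaction. It passed for no member with OVA at 30 min or 4 h or with Jurkat cells at 30 min, where 0%, 0.0405% and 0.00675% of all genes passed edgeR's quasi-likelihood test. At an unadjusted p under 0.05 these counts were 0, 0 and 1 of 10 members (Nlrc5 with Jurkat cells), and DESeq2 called 0 in each. With Jurkat cells for 4 h it passed for H2-K1 alone, at 0.18 ± 0.052 on the log2 scale with an adjusted p of 0.0466 (edgeR quasi-likelihood test), where 4.26% of all genes passed. H2-K1 thus rose by 1.50 in KO and 1.32 in WT. B2m (0.17), Nlrc5 (0.31) and Tap2 (-0.17) did not pass, with adjusted p of 0.177, 0.22 and 0.161. The H2-K1 call lay close to the threshold. It was lost with the size factors of DESeq2 (adjusted p = 0.0512), without a filter on low counts (0.0559) and in a fit of the 4 groups alone (0.0782), and in 9 of 12 fits that left out 1 library.

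Levels can be ranked between genes only per length of transcript. Divided by the length of the union of coding-transcript exons in GENCODE M21, untreated WT levels were 1636 CPM per kb for B2m, 699.5 for H2-K1, 324 for H2-T23, 204 for H2-D1, 185 for Tapbp, 132 for Tap1, 67.2 for Tap2, 26.6 for Tapbpl, 23.9 for Erap1 and 17.0 for Nlrc5. Among neighbours in this order only Tapbpl and Erap1 overlapped over the 3 libraries. In WT with Jurkat cells for 4 h the order began with B2m at 3885 CPM per kb and H2-K1 at 1752. H2-T23 at 668 and Tapbp at 649 overlapped, H2-D1 stood at 493 and Tap1 at 445, and Nlrc5 at 146 had passed Tapbpl at 91.9 and Erap1 at 32.7.

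Over the 18 libraries without Jurkat cells, the members' log2 levels followed each other to unequal degrees. Pearson's r was 0.987 between H2-K1 and H2-D1, 0.972 between H2-K1 and Nlrc5, 0.966 between H2-K1 and B2m, 0.704 between H2-K1 and Tap2, and -0.171 between Tap2 and Erap1. These points share libraries, depth and the 6 groups, so they only describe how the rows moved. The 5 other genes with a mean of at least 5 CPM whose pattern was most like the members' average over these 18 libraries were Frmd4a (r = 0.988), Oas1g (0.984), Adar (0.983), Lgals3bp (0.980) and Hsh2d (0.979). Over all 30 libraries they were Gbp4, Lgals9 and Sgcb (0.997 each), and Sp100 and Ccl5 (0.996 each).

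Genes around the class I pathway were counted from lists chosen with earlier results of these data known. Among all genes tested, 3.97% were called lower and 6.00% higher in untreated KO. The share called lower was 6.35% with OVA for 4 h. With Jurkat cells for 4 h 13.5% were called lower and 9.37% higher. Of 21 other class I heavy chains 14 were tested, and in untreated KO 6 were lower and 1 was higher, with a median log2 fold change of -0.29. Among the 6 were H2-Q4, with a KO mean of 55.8 CPM ± 4.07 (SD, n = 3) against 91.4 CPM ± 4.74 (SD, n = 3) in WT, H2-T10 (-0.83) and H2-M3 (-0.29). With OVA for 4 h 8 of 14 were lower and none higher, with a median of -0.63, and with Jurkat cells for 4 h 6 were lower and 2 higher, with a median of -0.16. Without the KO library that stood apart the last counts were 5 and 1. Some of these genes share stretches of exon sequence with the 3 heavy chains above, H2-Q4 among them and H2-T10 for 3 windows of 50 bases, and for H2-M3 no shared window was found. Whether reads were shared was not tested.

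Of 6 genes of the immunoproteasome and its activator, which make peptides suited to class I, Psme2 (-0.21) and Psmb9 (-0.18) were lower in untreated KO, and 5 of 6 were lower with Jurkat cells for 4 h (4 without the KO library that stood apart). Shares of all genes called were 3.97% lower and 6.00% higher in untreated KO. With Jurkat cells for 4 h they were 13.5% lower and 9.37% higher. The 8 chaperones of the endoplasmic reticulum that fold class I lay between -0.05 (Uggt1) and 0.09 (P4hb, adjusted p = 0.0562) in untreated KO, with a median of 0.02. Of 9 other peptidases 1, Ide, was lower in untreated KO, by 0.38 on the log2 scale. At 4 h with Jurkat cells 5 of these 9 were lower and 1 was higher in KO, with a median of -0.16, and without the KO library that stood apart 5 were lower and none was higher. Of 12 genes of the MHC class II pathway, which loads peptide from endosomes, 1 was higher in untreated KO, H2-DMb2 (0.21), and none was lower, with a median of 0.05. No test compared the lists.

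Of 16 factors that act at class I promoters, 5 were lower in untreated KO and none was higher. Among all genes tested, 3.97% were called lower and 6.00% higher in untreated KO, and 6.35% were lower with OVA for 4 h. With Jurkat cells the shares called lower were 3.67% at 30 min and 13.5% at 4 h. Irf9, a factor that carries type I interferon signals to promoters, had means of 122 CPM in KO and 156 CPM in WT (-0.35 ± 0.046 on the log2 scale), and Irf1 (-0.24), Stat2 (-0.23) and Nfyb (-0.15) were lower too. With OVA for 4 h 5 were lower again, among them Stat2 (-0.38), Irf9 (-0.34), Irf1 (-0.26) and Rfx5 (-0.18), a subunit of the complex with which Nlrc5 acts. Of 20 interferon-induced genes 17 were lower in untreated KO, with a median of -1.21, and 20 with OVA for 4 h, with a median of -1.22. After Jurkat cells for 4 h 8 of the 20 were lower, with a median of -0.46 (6 and -0.42 without the KO library that stood apart). After Jurkat cells for 30 min 7 were lower and 3 were higher, where 5.58% of all genes were called higher, with a median of -0.04 and values from -1.01 to 3.26. Without KO replicate 1 of that group, the library in which Nlrc5 was above all WT libraries, 14 were lower and 1 was higher, with a median of -0.62. Against untreated KO 13 of the 20 were higher at that time (median 0.60), where 8.72% of all genes were called higher. Without that library 7 were higher and 1 was lower. The lists of promoter factors and of interferon-induced genes share members. Of 19 genes tied to cross-presentation, Clec9a (-0.37) and Igtp (-0.61) were lower in untreated KO and Mrc1 (0.44) was higher, with a median of -0.03. Clec9a encodes a receptor for dead cells that is found on conventional type 1 dendritic cells. Clec9a and Batf3 are in this list and also in that of conventional type 1 markers.

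**Figure D4:**
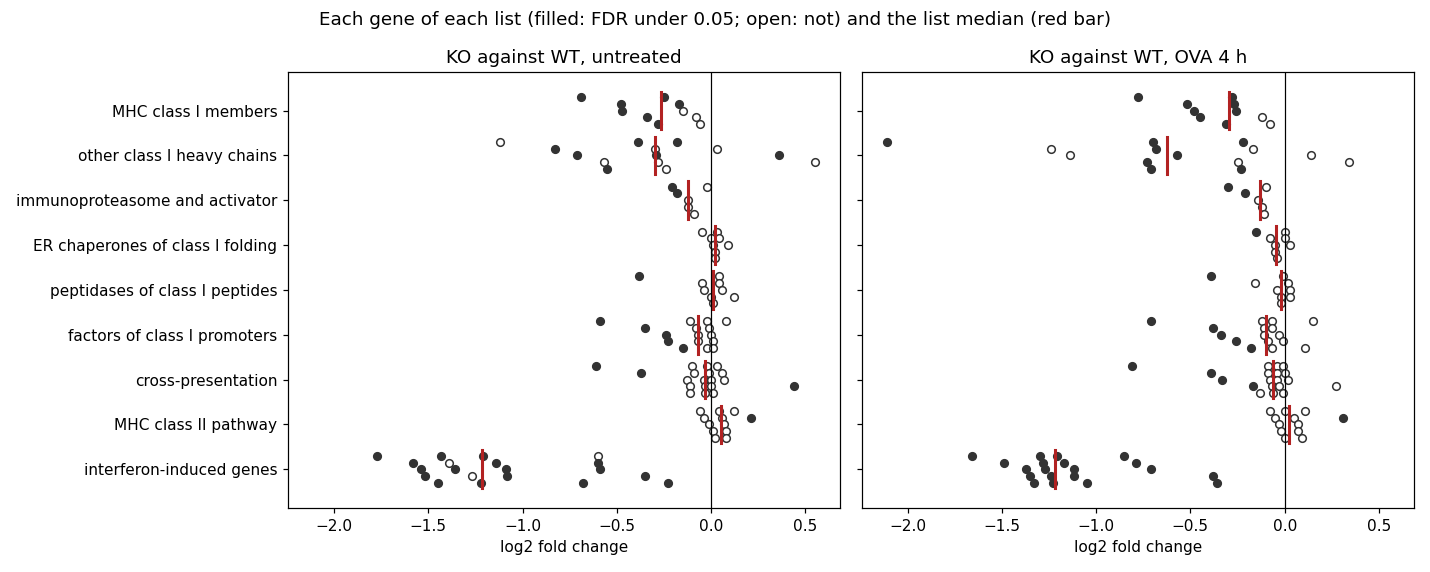
Log2 fold change of KO against WT for every tested gene of the members and the 8 lists, in untreated cells (left) and with OVA for 4 h (right); filled points passed an adjusted p under 0.05, open points did not, and red bars are list medians. The interferon-induced list lies lowest, with medians of -1.21 and -1.22, the class I members lie at -0.26 and -0.29, and the MHC class II list lies at 0.05 and 0.02.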

How the data were processed

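The deposited file is a single table of counts, whole numbers of reads for every gene in every library, with symbols and mm10 intervals, per the file headers. The submitters' processing notes name STAR 2.5, Subread, featureCounts 1.5.0-p1, DESeq2 and mm10, with no role or order. Not given in the sources used here are the annotation, the use of strand, and how multi-mapping reads and human reads of Jurkat cells were treated. Libraries were made with the TruSeq RNA kit v2, per the labels' protocols. Groups and replicate numbers came from the sample titles.

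From the counts, genes were kept with filterByExpr by group, scaled by TMM and tested with edgeR 4.0.16 (R 4.3.3, limma 3.58.1), two-sided quasi-likelihood F tests, fitted to the 30 libraries together with 1 coefficient per group and without covariates. P-values were adjusted by Benjamini-Hochberg over all 14808 genes tested. The common biological coefficient of variation was 0.0515. A standard error (SE) is the size of the log2 fold change over the root of F. The fit was tested on simulated data.

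The members and the gene and marker lists were chosen with earlier results of these data known, so no list was tested. All 10 members and Rubcn are named, and from each list up to 3 called genes per comparison by smallest p, or all where at most 5 were called; a result that would have been named by this rule is not reported here. For pairing, each gene's group mean was subtracted from its log2 levels, over genes with a mean of at least 5 CPM. These deviations were correlated between samples of the same replicate number. The correlation was above 0.1 in all 3 pairs in 3 comparisons: KO against WT, untreated (0.485, 0.368 and 0.256), and Jurkat cells for 30 min (0.344, 0.172 and 0.347) and OVA for 4 h (0.412, 0.145 and 0.287) against untreated WT. In the other 10 comparisons it was not above 0.1 in all 3 pairs. Alternatives were DESeq2's size factors, total-count scaling, no filter and a stricter one (5 CPM in 3 libraries), a block for replicate number, the compared groups alone, DESeq2 1.42.0, dropping genes that Jurkat libraries had higher than OVA libraries at 30 min, and leaving out each library.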

Additional observations from a re-analysis of the deposited data

Results flagged for a closer look

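The genotypes differed in the response of H2-K1 to Jurkat cells for 4 h by the interaction test, at 0.18 on the log2 scale (KO minus WT response, adjusted p = 0.0466, edgeR quasi-likelihood test). H2-K1 went from 837 to 2374 CPM in KO and from 1158 to 2899 CPM in WT, as means of 3 libraries. Without the KO library of that treatment that stood apart, replicate 2, the difference was 0.20 with an adjusted p of 0.0355. The call was lost in 9 of 12 fits that left out 1 library, with the size factors of DESeq2 in edgeR's test (adjusted p = 0.0512), without a filter on low counts (0.0559) and in a fit of the 4 groups alone (0.0782).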

How the results depend on the processing

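Counts of members called are named here, and none of the members' log2 fold changes that passed reversed under any alternative. For the difference between genotypes in the response to Jurkat cells for 4 h, where 1 member was called, 0 were called with DESeq2's size factors, 0 without a filter on low counts, 0 without the 2072 genes that Jurkat libraries had higher than OVA libraries at 30 min, and 2 with total-count scaling (H2-K1, 0.24, and B2m, 0.24, adjusted p = 0.0244). In the fit of the compared groups alone the 1 call was Nlrc5 (0.35, adjusted p = 0.0379) in place of H2-K1. The adjusted p of H2-K1 with DESeq2 was 0.0142. Leaving out 1 library gave 0 to 1, and the cause of these changes was not tested. For Jurkat cells for 30 min, dropping those 2072 genes, B2m and H2-D1 among them, gave 3 members lower in KO in place of 5, and 1 in place of 3 against untreated cells in WT and in KO. In each the fewer calls are those of B2m and H2-D1, which were left out. Leaving out 1 library gave 4 to 6, 1 to 3 and 1 to 3 for these, and the compared groups alone gave 1 in KO. The genotype difference in the response to Jurkat cells for 30 min was called for 0 members and for 0 to 1 when 1 library was left out. The 1 was Nlrc5 without KO replicate 2 (0.62, adjusted p = 0.0166); the same gene was higher in KO than in untreated KO in that fit (0.29, adjusted p = 0.0458).

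With the replicate number as a block, the counts lower in KO were 7, 6, 5, 8 and 10 in untreated cells, OVA for 30 min, Jurkat cells for 30 min, OVA for 4 h and Jurkat cells for 4 h, as without it, and the pairing changed no other count of members.

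Among repeats of single members' and Rubcn's values, 2648 kept their direction and side of the threshold, 43 fell short of it and 10 passed it. Over all genes the number called moved by more than 1.5 times in several fits of the compared groups alone: from 1370 to 891 for KO against WT with Jurkat cells for 30 min, from 1578 to 833 and from 558 to 246 for OVA for 30 min in WT and KO, from 2514 to 1460 for Jurkat cells for 30 min in KO, and from 631 to 337 for the interaction with Jurkat cells for 4 h. Without the Jurkat-raised genes, 2617 in place of 4247 and 1509 in place of 2514 were called in WT and KO at 30 min. Total-count scaling made 63.8%, 64.5% and 74.8% of calls higher in KO with OVA for 30 min, OVA for 4 h and Jurkat cells for 4 h, where 926 of 1834, 921 of 1861 and 1388 of 3392 were higher with TMM, and 29.0% and 29.2% higher for Jurkat cells for 4 h in WT and KO, where 5761 of 11778 and 5548 of 11619 were. With 3 libraries a group, the smallest log2 difference of a member that was called was 0.13 (H2-K1, Jurkat cells for 30 min against untreated, KO), and the largest between 2 groups that was not was -0.21 (Nlrc5, KO against WT, Jurkat cells for 30 min).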
